A study of Triticum monococcum with 54 samples.

Results

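Einkorn grain held 120 late-rising genes, whose RNA stood far higher at 600 than at 300 degree days (°Cd, accumulated temperature) after anthesis under all 4 nutrient treatments. They are 1.39% of the genes with complete rows in every treatment's table. Counts of each library were scaled by its total over these shared genes, corrected with trimmed mean of M values (TMM) factors, to the usual unit of CPM. The rise of a gene in a treatment was the log2 ratio of its mean CPM at 600 to its mean CPM at 300 °Cd, with 1 CPM added to both. In all, 155 genes had a rise of 2 or more in every treatment, and the 120 with the highest minimum over the treatments were kept. The minimum ran from 2.29 to 7.27 on the log2 scale, with a median of 2.92. The members were chosen by their measured levels in the 300 and 600 °Cd libraries, so those values are given as a description and without a test. At the limit the last genes inside were TmLoc008040 at 2.31, TmLoc012648 at 2.29 and TmLoc007033 at 2.29, and the first outside were TmLoc006086 at 2.29, TmLoc003455 at 2.27 and TmLoc011518 at 2.26.

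Whole grain of Triticum monococcum ssp. monococcum, a diploid wheat, was sampled from 1 accession grown in a greenhouse on washed perlite and sand. The plants received only demineralized water up to anthesis, so all groups share that early lack of nutrients. From 200 °Cd on they were given 1 of 4 solutions, which held 6 mM nitrogen (N) without sulfur (S) for N+S-, neither element for N-S-, 6 mM N with 2 mM S for N+S+, and 0.5 mM N with 2 mM S for N-S+. N-S+ grain therefore had a little N, while N-S- grain had none. Stages 300, 400, 500 and 600 °Cd were sampled in all 4 treatments, and stages 100 and 200 °Cd carry the N-S- label alone, which gave 18 groups of 3 biological replicates and 54 libraries. Whole grain mixes several tissues, and in such bulk RNA fewer cells of a type and less RNA per cell cannot be told apart.

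During filling, the starchy endosperm of a cereal grain lays down starch and storage proteins, some rich in the sulfur amino acids and some poor in them. Toward maturation the embryo and the aleurone layer make oil bodies and proteins that protect dry tissue, such as late embryogenesis abundant proteins and small heat shock proteins. Genes of all these kinds can be expressed late. No file pairs the identifiers with names or descriptions, so none of these roles is given to a member here, lists of such genes could not be read, and the tissue label could not be set against marker genes.

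The libraries held 370241 to 1736179 counts over the shared genes, with the 6 lowest totals all at 400 °Cd. The sequencing lanes named in the sample labels follow the stages. Stages 100 to 300 °Cd were on lane 3, all of 400 °Cd with the S-free grain of 500 °Cd on lane 4, and the S-supplied grain of 500 °Cd with all of 600 °Cd on lane 5. The 3 N-S- libraries of 500 °Cd stood apart, with correlations between replicates across genes of 0.816 to 0.832, against 0.873 or more in each other group. Of the 120 members, 115 passed the filter on low counts and were tested among 4001 genes. The other 5 members, TmLoc004975, TmLoc010502, TmLoc009017, TmLoc001535 and TmLoc004163, were too low for the test. A gene could pass through its level at 600 °Cd alone, so counts over the 115 describe the members that were abundant enough to test.

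The climb of the members ran over the whole interval in every treatment. In order of stage from 300 to 600 °Cd, the median of the members' mean levels was 4.87, 20.9, 51.4 and 88.3 CPM in N+S- grain and 5.71, 22.8, 45.1 and 78.3 CPM in N-S- grain. It was 6.63, 20.6, 41.1 and 89.2 CPM in N+S+ grain and 5.19, 20.5, 52.4 and 92.3 CPM in N-S+ grain. The medians of the 4 treatments thus lay close together at each stage, and the level at 500 °Cd was below that at 600 °Cd in each. At 600 °Cd the mean over treatments ran from 5.74 CPM in the lowest member to 225327 CPM in the highest, with a median of 95.1 CPM and 16 members at 1000 CPM or more. The ratio of the highest to the lowest treatment mean at that stage had a median of 1.58 over the members.

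**Figure D1:**
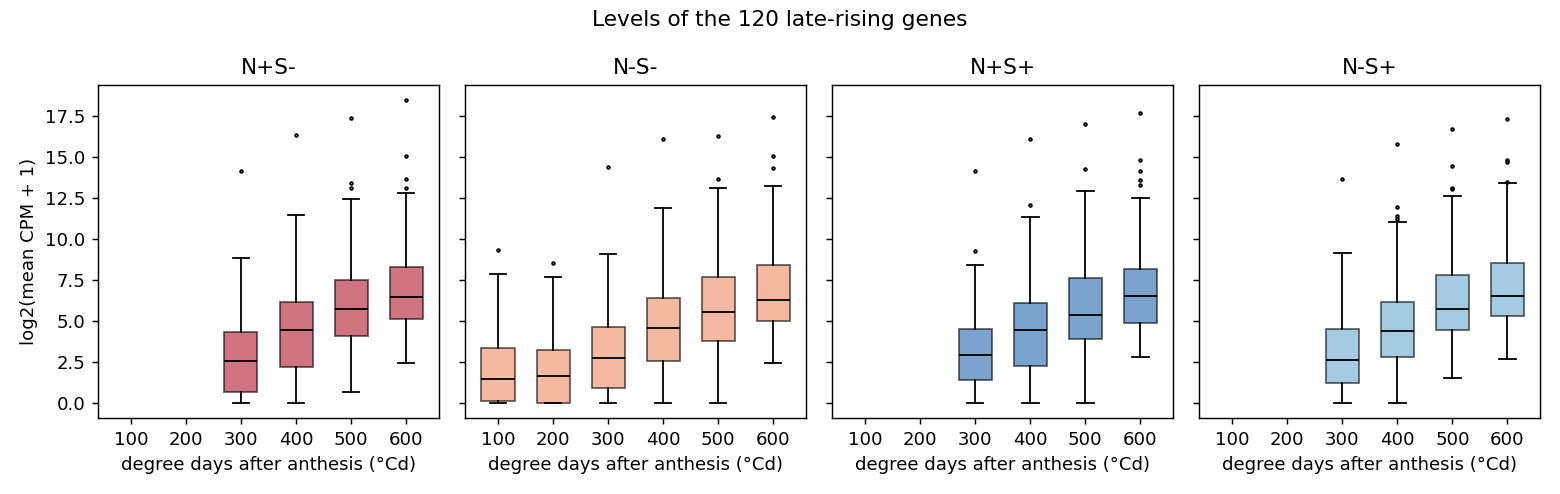
Levels of the 120 genes by stage and treatment, as log2(mean CPM + 1) against degree days after anthesis. Boxes run from the lower to the upper quartile of the genes with the median as a line, whiskers reach to 1.5 box lengths and points lie beyond them. The median climbs at each step from 300 to 600 °Cd in all 4 treatments, and in N-S- grain it is lowest at 100 and 200 °Cd.

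A single gene made up most of the RNA of the group. TmLoc012286, of 2395 bases, had 402901, 257671 and 418870 CPM in N+S- grain at 600 °Cd, 188802, 152796 and 182541 CPM in N-S- grain, 247528, 185737 and 189045 CPM in N+S+ grain and 152492, 183485 and 142051 CPM in N-S+ grain. Every N+S- library lay above all 9 others at that stage. It held 66.7% of the summed CPM of the members at 600 °Cd, the top 5 members held 87.6% and the 16 members at 1000 CPM or more held 95.2%. Per kilobase, its mean level of 94082 CPM per kb was followed by TmLoc011777 with 63727, TmLoc012192 with 32403, TmLoc011776 with 18443 and TmLoc011229 with 13320 CPM per kb.

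Together the members took a steeply growing part of the counts of the shared genes. Their share was 0.508% ± 0.039 at 100 °Cd and 0.286% ± 0.021 at 200 °Cd in N-S- grain (SD, n = 3 each). At 300 °Cd the group means lay between 1.63% and 2.84%, at 400 °Cd between 6.31% and 12.3%, at 500 °Cd between 14.7% and 24.8%, and at 600 °Cd between 20.4% and 41.2%. At 600 °Cd the share was 41.2% ± 5.97 in N+S-, 26.6% ± 2.96 in N-S-, 24.0% ± 2.37 in N+S+ and 20.4% ± 1.63 in N-S+ (SD, n = 3 each). Without TmLoc012286 the share at 600 °Cd was 9.38% ± 0.839 in N+S-, 10.5% ± 1.801 in N-S-, 8.29% ± 1.06 in N+S+ and 8.87% ± 0.682 in N-S+ (SD, n = 3 each), values closer to each other than with this gene.

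The timing of each member was described by the share of its log2 rise from 300 to 600 °Cd that had been reached at 400 and at 500 °Cd. The median share at 400 °Cd was 0.431 in N+S-, 0.493 in N-S-, 0.392 in N+S+ and 0.411 in N-S+. At 500 °Cd it was 0.795 in N+S-, 0.756 in N-S-, 0.774 in N+S+ and 0.835 in N-S+. Most members had thus passed the halfway point of their rise by 500 °Cd in every treatment. A share of 0.5 or more had been reached by 400 °Cd in 44 members in N+S-, 58 in N-S-, 43 in N+S+ and 49 in N-S+, and by 500 °Cd in 116, 96, 107 and 109 members in the same order. The linear scale, on which late steps weigh more, placed the rise later, and the median share there was 12.8% to 20.4% at 400 °Cd and 47.8% to 59.7% at 500 °Cd.

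**Figure D2:**
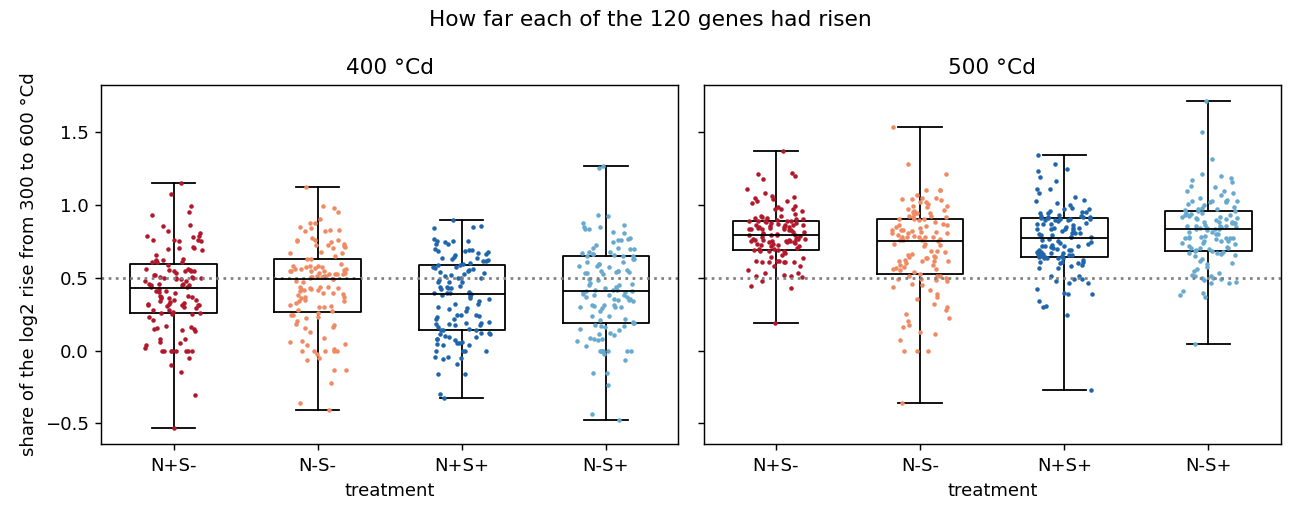
Share of the log2 rise from 300 to 600 °Cd reached by each of the 120 genes at 400 °Cd (left) and 500 °Cd (right) in the 4 treatments. Points are genes, boxes the quartiles with the median as a line, whiskers the full range, and the dotted line marks a share of 0.5. The medians lie between 0.392 and 0.493 at 400 °Cd and between 0.756 and 0.835 at 500 °Cd, and shares above 1 are genes whose level at that stage exceeded the one at 600 °Cd.

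The halfway stage was the same under all 4 treatments in 45 of the 120 members. It was 400 °Cd in 24 of them and 500 °Cd in 21, and no member was halfway at 600 °Cd in all 4. Another 68 members had their halfway stages spread over a pair of stages, and 7 spread over all 3. The 24 early members had a median of 538 CPM at 600 °Cd and a median length of 730.5 bases, against 166 CPM and 1368 bases in the 21 members halfway at 500 °Cd. The 16 members that were halfway at 600 °Cd in at least a pair of treatments were the least abundant, with a median of 34.6 CPM at 600 °Cd.

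TmLoc012731, of 676 bases, was the early member with the largest minimum rise, at 6.89. In N+S- grain it had 22.3, 11.5 and 46.2 CPM at 300 °Cd, 2039, 1569 and 2783 CPM at 400 °Cd, 6936, 4535 and 5205 CPM at 500 °Cd and 6379, 7517 and 6738 CPM at 600 °Cd. Its level was already near the top at 500 °Cd, where the libraries overlapped those of 600 °Cd. TmLoc006533, of 1183 bases, had no count in any of the 12 libraries of 300 °Cd and none at 100 or 200 °Cd. It reached 18.1, 83.6 and 77.5 CPM at 400 °Cd in N-S- grain, 111, 160 and 181 CPM at 500 °Cd and 127, 99.3 and 100.2 CPM at 600 °Cd. With the unseen group set at 3 counts in all, its level at 600 °Cd was at least 78.6-fold higher than at 300 °Cd in N+S- grain and at least 106-fold higher in N-S- grain.

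Other members made most of their rise in CPM after 500 °Cd. TmLoc011634, of 2296 bases and the second-ranked member, had 3 counts in the 12 libraries of 300 °Cd together. In N-S+ grain it had no count, 7.18 CPM and no count at 400 °Cd, 27.8, 16.9 and 4.29 CPM at 500 °Cd and 605, 987 and 515 CPM at 600 °Cd. Its mean share of the rise at 500 °Cd over the treatments was 0.48. The smallest mean shares at 500 °Cd were those of TmLoc003317 at 0.17, TmLoc011883 at 0.31, TmLoc010502 at 0.36 and TmLoc000052 at 0.39. These 4 members held 8, 6, 1 and no counts at 300 °Cd, so their shares rest on few reads.

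Not every member had its highest level at 600 °Cd. Averaged by group, 101 members peaked at 600 °Cd, 18 at 500 °Cd and TmLoc007957 at 100 °Cd. The mean at 500 °Cd exceeded the mean at 600 °Cd in 14 members in N+S-, 15 in N-S-, 14 in N+S+ and 23 in N-S+, and in 5 members in all 4. These 5 were TmLoc006533, TmLoc000897, TmLoc012732, TmLoc012552 and TmLoc007033. The largest mean shares at 500 °Cd belonged to TmLoc007033 at 1.41, TmLoc012732 at 1.36, TmLoc006891 at 1.10 and TmLoc001070 at 1.10. TmLoc012732, of 274 bases, had 90.6, 62.5 and 52.4 CPM at 500 °Cd in N+S- grain and 18.8, 20.4 and 30.0 CPM at 600 °Cd. All 3 libraries of 500 °Cd lay above those of 600 °Cd in that treatment, although the stages were on different lanes, so stage and lane cannot be told apart.

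The step between 400 and 500 °Cd was tested gene by gene, and the rule used the libraries of neither stage. The step nevertheless lies inside the interval over which the members were chosen to rise. The rule therefore favoured many higher and few lower calls among them. The percentages of all genes are given for scale, and cannot show that the members differ from other genes. In N+S- grain, 47 of the 115 tested members were higher at 500 than at 400 °Cd, or 40.9%, against 3.7% of all 4001 genes called higher, and none was lower, against 3.5% of all genes (edgeR quasi-likelihood fit, p-values adjusted by Benjamini-Hochberg over all genes tested, called at an adjusted p under 0.05). In N-S- grain 33 were higher, or 28.7% against 2.17%, and none lower against 5.07%. In N+S+ grain 50 were higher, or 43.5% against 3.17%, and none lower against 2.45%. In N-S+ grain 53 were higher, or 46.1% against 4.17%, and none lower against 3.9%. DESeq2 likewise called no member lower in any of the 4 treatments, and none was lower at an unadjusted p under 0.05.

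The median log2 fold change of the tested members from 400 to 500 °Cd was 1.34 in N+S-, 1.13 in N-S-, 1.54 in N+S+ and 1.48 in N-S+. Over all tested genes it was 0 in N+S-, -0.08 in N-S-, 0.01 in N+S+ and 0 in N-S+. With members that had a group without counts set at their bound, the members' medians were 1.23, 1.03, 1.52 and 1.45 in the same order. All 3 libraries of 500 °Cd lay above all 3 of 400 °Cd in 76 of the 120 members in N+S-, 49 in N-S-, 73 in N+S+ and 74 in N-S+, against 6.97%, 3.03%, 6.27% and 5.71% of all shared genes. The rule favoured a higher level at 500 °Cd among the members, so these differences from all genes are a description. Both stages were on 1 lane where S was absent and on different lanes where it was supplied, so for the S-supplied grain stage and lane cannot be told apart.

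The counts of members called depended on single libraries. In N-S- grain 19 were called without replicate 1 of 400 °Cd. In N+S- grain 28 and 31 were called without replicates 2 and 3 of 400 °Cd, and 30 without replicate 1 or without replicate 3 of 500 °Cd. With the compared groups alone, 19 members were called in N-S- grain, where the calls over all genes fell from 290 to 36.

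**Figure D3:**
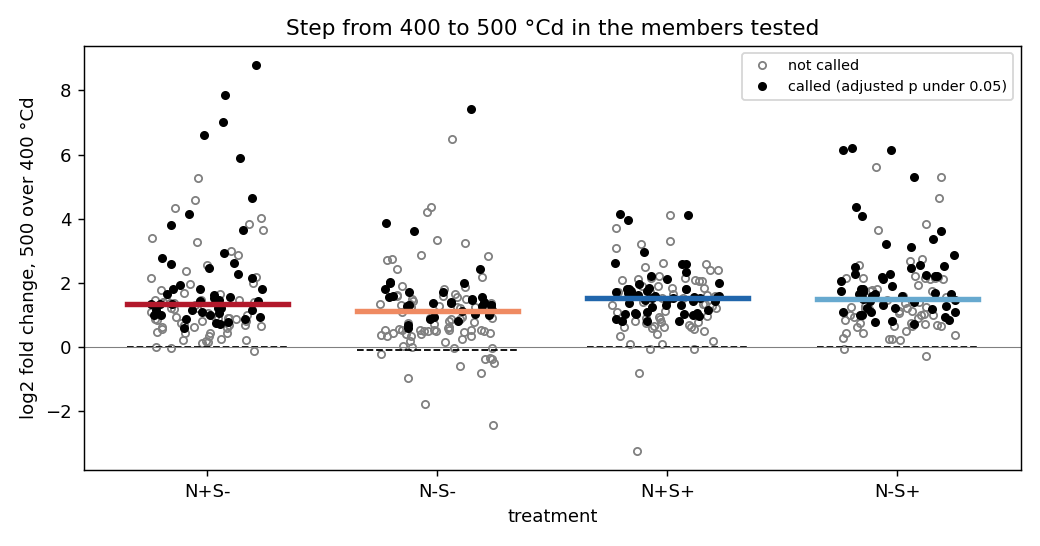
Log2 fold change from 400 to 500 °Cd (500 over 400) of the 115 tested genes in the 4 treatments. Filled points passed the test at an adjusted p under 0.05 and open points did not, coloured bars are the medians of the members and dashed bars the medians of all 4001 tested genes. The members' medians lie between 1.13 and 1.54, and those of all genes between -0.08 and 0.01.

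Across treatments, 21 members were called higher at 500 °Cd in all 4, 18 in 3, 10 in a pair, 25 in 1 and 41 in none. The fitted step was positive in all 4 treatments in 94 of the 115, negative in all 4 in none, and mixed in 21. These counts across treatments were not made over all tested genes, and the rule asked for a rise in all 4. They are a description and not a trait shown to be particular to the members. The 21 that passed everywhere included TmLoc012192, TmLoc012731, TmLoc006533, TmLoc004454, TmLoc010645, TmLoc005962, TmLoc011776, TmLoc011229, TmLoc011777, TmLoc009049 and TmLoc010744. TmLoc012192, of 873 bases and ranked first, had 12295, 5844 and 14746 CPM at 500 °Cd and 2612, 1517 and 4174 CPM at 400 °Cd in N+S- grain. In N-S- grain it had 8204, 4822 and 13592 CPM at 500 °Cd and 1333, 1900 and 1716 CPM at 400 °Cd. The libraries of the stages did not overlap in either treatment, and the log2 fold change was 1.94 ± 0.39 (SE, adjusted p = 0.000467) in N+S- and 2.43 ± 0.40 (SE, adjusted p = 4.28e-05) in N-S- grain.

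TmLoc011777, of 356 bases, stepped up in all 4 treatments. It had 10107, 6616 and 9203 CPM at 500 °Cd and 2779, 2575 and 1837 CPM at 400 °Cd in N+S- grain. In N-S+ grain it had 33804, 20367 and 13815 CPM at 500 °Cd and 2645, 4597 and 4341 CPM at 400 °Cd. The libraries of the stages were apart in both, with log2 fold changes of 1.81 ± 0.27 (SE, adjusted p = 2.12e-06) in N+S- and 2.55 ± 0.27 (SE, adjusted p = 9.19e-10) in N-S+ grain. The next identifier, TmLoc011776, of 507 bases, stepped up by 1.62 ± 0.21 (SE, adjusted p = 9.38e-08) in N+S- grain. Consecutive identifiers also occurred among members in TmLoc012731 with TmLoc012732, and TmLoc005327 and TmLoc005329 are adjacent rows. No gene sequence was used here, so reads shared between near-identical copies could not be looked for.

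The largest fitted steps belonged to members with almost no counts at 400 °Cd, for which a bound or a counting interval is given. TmLoc005329, of 146 bases, had 101, 18.4 and 76.8 CPM at 500 °Cd in N+S- grain and no count in any library at 400 °Cd, and was at least 31.3-fold higher at 500 °Cd (adjusted p = 0.0029). TmLoc005697, of 190 bases, had 377 counts over the group at 500 °Cd and 1 at 400 °Cd, a ratio of 303 with a 95% counting interval of 54.0 to 11992 (adjusted p = 0.000526). Both were higher at 500 °Cd in every library of N+S- grain, though replicate 2 had the lowest level in each. In N-S- grain TmLoc011634 had 39 counts at 500 °Cd, none of them in replicate 2, and none at 400 °Cd, at least 9.61-fold higher (adjusted p = 0.0396). That call was lost without any 1 of 5 of its 6 libraries, with adjusted p between 0.0858 and 0.135.

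TmLoc002057, of 483 bases, had no count at 100, 200 or 300 °Cd in any of the 18 libraries and was among the largest steps of N-S- grain, as it was of N+S+ grain. It had 18.9, 29.2 and 105 CPM at 500 °Cd in N-S- grain and no count, 2.99 and 8.02 CPM at 400 °Cd, without overlap (log2 fold change 3.86 ± 0.85 SE, adjusted p = 0.00264). In N+S+ grain 42 counts at 500 °Cd stood against 2 at 400 °Cd, a ratio of 19.8 with a 95% counting interval of 5.16 to 169 (adjusted p = 0.00876). The N-S- call was lost without replicate 3 of 500 °Cd (adjusted p = 0.0672). The N+S+ call was lost without replicate 1 or without replicate 3 of 400 °Cd (adjusted p = 0.0511 and 0.0524).

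Other calls on few reads were TmLoc007033 in N+S+ grain, with 22 counts at 500 °Cd and 1 at 400 °Cd, and TmLoc013038 and TmLoc011883 in N-S+ grain. TmLoc013038 had 21 counts at 500 °Cd and TmLoc011883 had 20, each with none at 400 °Cd, at least 4.45-fold and at least 4.24-fold higher. TmLoc007033 had a ratio of 20.8 with a 95% counting interval of 3.36 to 857 (adjusted p = 0.0398), and lost its call without any 1 of replicates 1, 2 and 3 of 400 °Cd or replicate 2 of 500 °Cd, with adjusted p of 0.0552 to 0.386. TmLoc013038 (adjusted p = 0.0455) and TmLoc011883 (adjusted p = 0.0383) lost theirs without any 1 of the 3 libraries of 400 °Cd or without replicate 1 of 500 °Cd, with adjusted p of 0.109 to 0.333. TmLoc011883 also lost its call with no filter on low counts (adjusted p = 0.0608).

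The most abundant member passed the test of this step in a pair of the 4 treatments. TmLoc012286 had 218805, 119807 and 165797 CPM at 500 °Cd in N+S- grain and 92683, 67192 and 85866 CPM at 400 °Cd. In N-S- grain it had 83404, 92334 and 56275 CPM at 500 °Cd and 66932, 74818 and 65068 CPM at 400 °Cd. The stages were apart in N+S- grain and overlapped in N-S- grain. Its log2 fold change was 0.99 ± 0.29 (SE, adjusted p = 0.0232) in N+S-, 0.17 ± 0.29 (SE, adjusted p = 0.795) in N-S-, 0.89 ± 0.29 (SE, adjusted p = 0.0539) in N+S+ and 0.94 ± 0.29 (SE, adjusted p = 0.0306) in N-S+ grain. The test of the difference between the N+S- and N-S- steps gave 0.82 ± 0.41 (SE, adjusted p = 0.438), so a difference between these treatments was not shown.

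Before 300 °Cd most members were close to silent in N-S- grain, the only treatment label at those stages. The median level was 1.81 CPM at 100, 2.12 CPM at 200 and 5.71 CPM at 300 °Cd. No count was found in the 3 libraries of 100 °Cd in 30 members, or 25% against 2.15% of the 4001 tested genes, and in the 3 libraries of 200 °Cd in 31 members, or 25.8% against 1.50%. The rule favoured low levels at 300 °Cd, so these shares are a description. The tested genes had passed the filter on low counts, while the members counted here include 5 that did not. Shares over all shared genes were not counted, so these percentages cannot show that members were silent more often than other genes. In all, 18 members had no count at either stage, while 28 members exceeded 10 CPM at 100 °Cd and 27 at 200 °Cd.

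**Figure D4:**
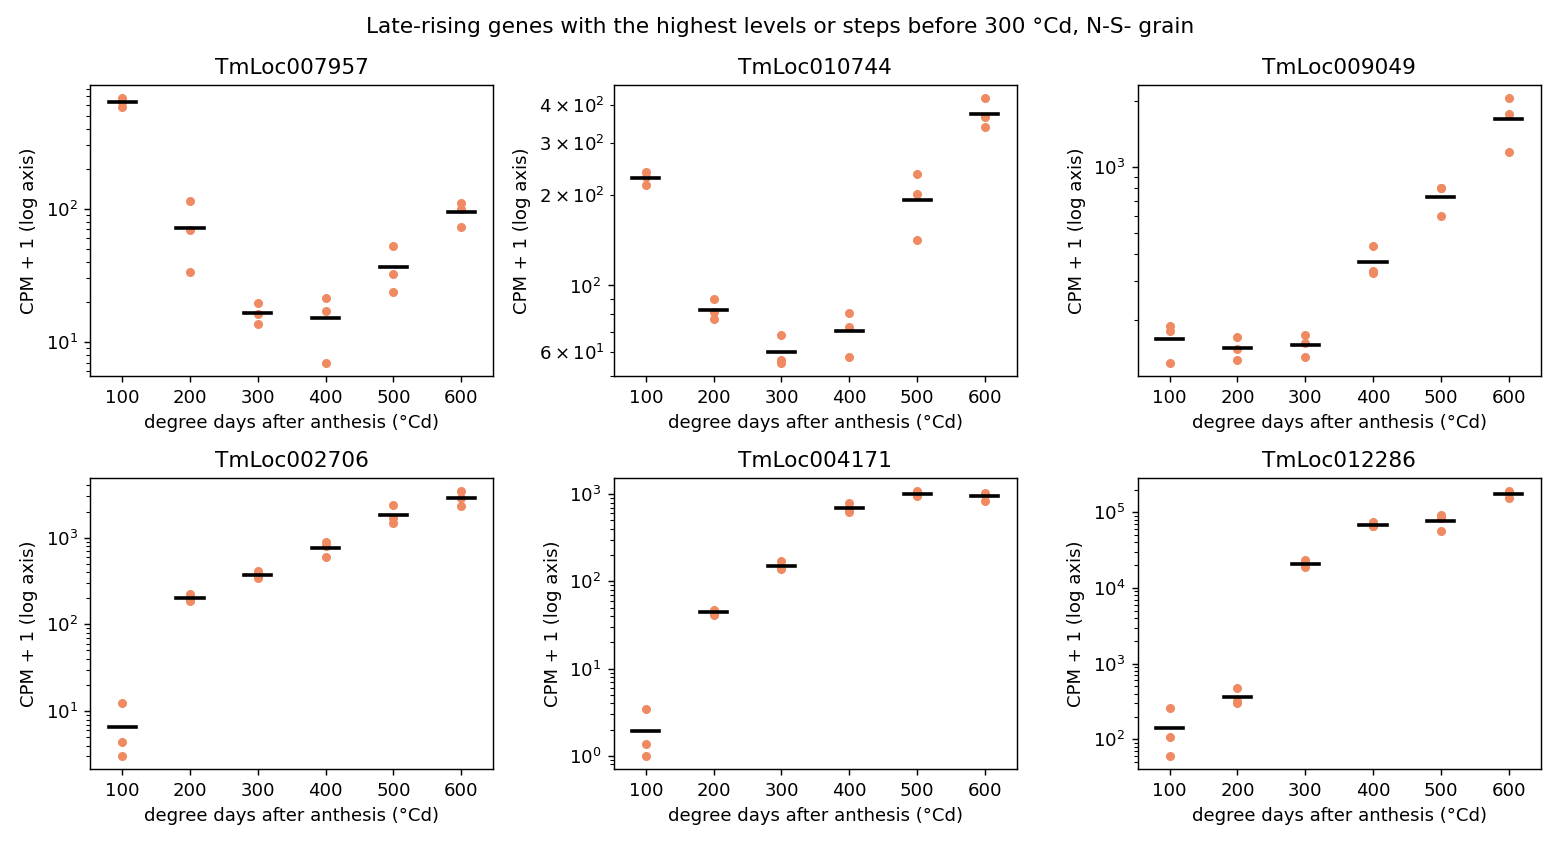
Levels in N-S- grain, as CPM + 1 on a log axis against degree days after anthesis, of 6 of the members with the highest levels or steps before 300 °Cd. Points are the 3 libraries of a stage and bars their mean. TmLoc007957 and TmLoc010744 are high at 100 °Cd and lowest between 300 and 400 °Cd, TmLoc009049 is level up to 300 °Cd, and TmLoc002706, TmLoc004171 and TmLoc012286 are higher at 200 than at 100 °Cd.

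Some members were higher before 300 °Cd than at 300 °Cd, as were many genes outside the group. With 1 CPM added, the mean at 100 °Cd was at least 2-fold that at 300 °Cd in N-S- grain in 16 members, or 13.3%, against 20.1% of tested and 12.3% of all shared genes. The mean at 200 °Cd was in 7 members, or 5.83%, against 12.1% and 7.82%. The rule used the level at 300 °Cd, so these shares carry no test. TmLoc007957, of 1664 bases, had the highest level at 100 °Cd, with 632, 677 and 584 CPM, and then 32.4, 68.3 and 113 CPM at 200 °Cd, 18.8, 15.2 and 12.5 CPM at 300 °Cd, 20.4, 5.97 and 16.0 CPM at 400 °Cd, 31.5, 22.9 and 51.8 CPM at 500 °Cd and 109, 99.3 and 72.2 CPM at 600 °Cd. It was the only member whose mean at 100 °Cd was above its mean at 600 °Cd. TmLoc010744, of 2574 bases, had 230, 239 and 216 CPM at 100 °Cd, 80.3, 89.3 and 76.2 CPM at 200 °Cd, 55.2, 54.2 and 67.5 CPM at 300 °Cd and 422, 338 and 364 CPM at 600 °Cd. TmLoc009049, of 1878 bases, instead stayed level, with 177, 126 and 186 CPM at 100 °Cd, 165, 131 and 147 CPM at 200 °Cd and 155, 134 and 169 CPM at 300 °Cd, before 1747, 1168 and 2066 CPM at 600 °Cd.

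Between 100 and 200 °Cd, both on lane 3 and unused by the rule, the members moved both ways. Of the 115 tested, 11 were higher at 200 than at 100 °Cd, against 13.8% of all genes called higher, and 13 were lower, against 6.87%. These are 9.57% and 11.3% of the members, and the median log2 fold change was 0 over the members and -0.01 over all genes. With the compared groups alone 5 were higher and 10 lower. Of the 11 higher at 200 °Cd, 10 had a still higher mean at 300 °Cd. Of the 13 that were lower, 8 had a mean at 300 °Cd above that at 200 °Cd.

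TmLoc004171, of 225 bases, and TmLoc002706, of 459 bases, were the strongest early risers. TmLoc004171 had 40.1, 46.5 and 42.5 CPM at 200 °Cd and no count, 2.44 and 0.382 CPM at 100 °Cd, a fold of 39.4 (5.30 ± 0.36 SE on the log2 scale, adjusted p = 3.89e-19). TmLoc002706 had 190, 226 and 184 CPM at 200 °Cd and 11.4, 2.04 and 3.44 CPM at 100 °Cd, a fold of 34.3 (5.10 ± 0.30 SE on the log2 scale, adjusted p = 3.85e-22). The stages were far apart in both genes. TmLoc012286 was also higher at 200 °Cd, with 317, 299 and 473 CPM against 255, 105 and 59.3 CPM at 100 °Cd (log2 fold change 1.35 ± 0.30 SE, adjusted p = 0.000454).

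The largest fitted falls belonged to members with counts at 100 °Cd and none at 200 °Cd. TmLoc013038, of 1532 bases, had no count in the 3 libraries of 200 °Cd and 10.2, 9.37 and 5.73 CPM at 100 °Cd, at least 12.4-fold lower (adjusted p = 0.00108). TmLoc011743, of 1985 bases, had no count at 200 °Cd and 6.94, 14.3 and 1.91 CPM at 100 °Cd, at least 11.2-fold lower (adjusted p = 0.000419). TmLoc007957 fell to 32.4, 68.3 and 113 CPM at 200 °Cd, against 632, 677 and 584 CPM at 100 °Cd (log2 fold change -3.16 ± 0.36 SE, adjusted p = 1.12e-10).

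Few of the members were called between nutrient solutions at 400 and 500 °Cd. Lack of S at high N was read from N+S- against N+S+ grain. At 400 °Cd, on 1 lane, no member was higher in N+S- grain, against 0.275% of all genes, and 2 were lower, against 0.5%. At 500 °Cd none was higher, against 0.25%, and 2 were lower, against 0.425%, but there grain with and without S was sequenced on different lanes, so S and lane cannot be told apart. In the mean of the stages 2 members were higher, against 0.575%, and 4 lower, against 0.825%. An unadjusted p under 0.05 was found in 24 of the 115 tested members at 400 °Cd, 11 at 500 °Cd and 23 in the mean. Over all 4001 genes it was found in 462, 254 and 420. The median log2 fold change of the members was 0.10 at 400 and -0.02 at 500 °Cd, against 0 and -0.03 over all genes. With the compared groups alone 1 member was higher and 5 lower at 400 °Cd, and 4 higher and 2 lower at 500 °Cd.

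TmLoc006891, of 632 bases, carried the clearest difference. At 400 °Cd it had 216, 233 and 131 CPM in N+S- grain, 458, 765 and 532 CPM in N-S- grain, 739, 814 and 890 CPM in N+S+ grain and 521, 581 and 589 CPM in N-S+ grain. At 500 °Cd it had 505, 489 and 524 CPM in N+S- grain, 936, 1060 and 476 CPM in N-S- grain, 1879, 2682 and 1516 CPM in N+S+ grain and 1991, 1806 and 843 CPM in N-S+ grain. All N+S- libraries lay below all others at 400 °Cd, and below all libraries of S-supplied grain at 500 °Cd. Against N+S+ grain, the log2 fold change of N+S- grain was -2.07 ± 0.30 (SE, adjusted p = 2.37e-06) at 400 °Cd and -2.03 ± 0.28 (SE, adjusted p = 6.01e-07) at 500 °Cd, and both calls held without any single library.

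The rise of TmLoc006891 nonetheless had the same halfway stage, 400 °Cd, in all 4 treatments. At 300 °Cd it had 68.7, 59.6 and 87.0 CPM in N+S- grain and 67.8, 103 and 103 CPM in N-S- grain. In S-supplied grain it had 253, 120.97 and 264 CPM in N+S+ and 212, 79.6 and 65.5 CPM in N-S+. All N+S- libraries of 300 °Cd lay below those of N+S+ grain, but they overlapped those of N-S- and N-S+ grain. At 600 °Cd it had 508, 518 and 409 CPM in N+S- grain, 962, 900 and 747 CPM in N-S- grain, 1643, 1425 and 889 CPM in N+S+ grain and 1127, 1213 and 946 CPM in N-S+ grain. N+S- grain was lowest in every library at 600 °Cd, and these values of the choosing stages carry no test.

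The other members called for lack of S at high N were TmLoc000263, TmLoc011777 and TmLoc011776, which were lower, and TmLoc012192 and TmLoc010566, which were higher. TmLoc000263, of 744 bases, was lower at 400 °Cd, with 483, 403 and 434 CPM in N+S- grain and 802, 1430 and 1311 CPM in N+S+ grain (log2 fold change -1.42 ± 0.31 SE, adjusted p = 0.00494). The groups did not overlap, and the call was lost without replicate 3 of N+S- grain (adjusted p = 0.0524). TmLoc011777 was lower at 500 °Cd, with 10107, 6616 and 9203 CPM in N+S- grain and 17322, 26882 and 15081 CPM in N+S+ grain (log2 fold change -1.23 ± 0.26 SE, adjusted p = 0.00337), again without overlap. That call was lost without replicate 2 of N+S- (adjusted p = 0.0832) or of N+S+ grain (adjusted p = 0.170). In the mean of the stages TmLoc011776 was lower by a smaller amount (log2 fold change -0.52 ± 0.14 SE, adjusted p = 0.0499).

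A pair of members was higher in S-free grain at high N in the mean of the stages. TmLoc012192 had 2612, 1517 and 4174 CPM in N+S- grain and 1154, 2207 and 1335 CPM in N+S+ grain at 400 °Cd, which overlapped, and 12295, 5844 and 14746 CPM in N+S- grain and 3663, 5535 and 3108 CPM in N+S+ grain at 500 °Cd, which did not (log2 fold change of the mean 1.11 ± 0.27 SE, adjusted p = 0.0126). TmLoc010566, of 228 bases, had 46.4, 12.0 and 32.8 CPM in N+S- grain and no count, 14.0 and 13.3 CPM in N+S+ grain at 400 °Cd, and 75.2, 55.2 and 109 CPM in N+S- grain and 18.0, 45.8 and 30.2 CPM in N+S+ grain at 500 °Cd (log2 fold change of the mean 1.50 ± 0.41 SE, adjusted p = 0.0426). The call of TmLoc010566 was lost without any 1 of 7 of the 12 libraries, with adjusted p of 0.0574 to 0.196. That of TmLoc012192 was lost without replicate 3 of N+S- grain at either stage, replicate 1 of N+S+ grain at 400 °Cd or replicate 3 of N+S+ grain at 500 °Cd, with adjusted p of 0.0526 to 0.135. In all 3 members were called in the mean of the stages without replicate 3 of N+S- grain at 400 or at 500 °Cd.

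**Figure D5:**
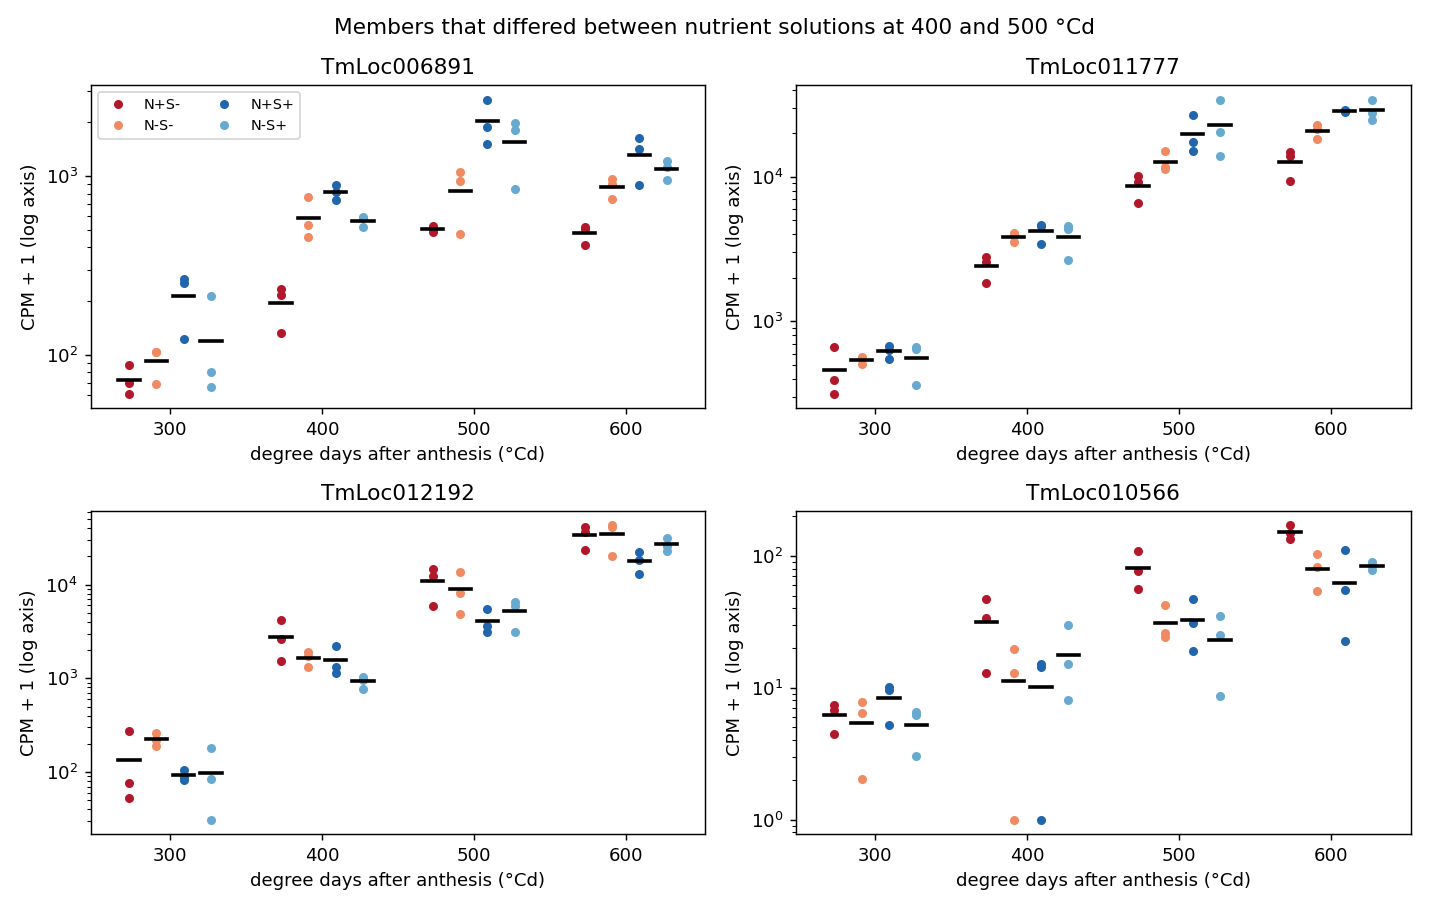
Levels of TmLoc006891, TmLoc011777, TmLoc012192 and TmLoc010566, as CPM + 1 on a log axis, at 300 to 600 °Cd in N+S-, N-S-, N+S+ and N-S+ grain, from left to right within each stage. Points are libraries and bars the mean of 3. For TmLoc006891 the N+S- points lie below all others at 400 °Cd, and for TmLoc011777 they lie below the N+S+ points at 500 °Cd. The values of 300 and 600 °Cd were used to choose the genes.

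Lack of S at low N, read from N-S- against N-S+ grain, gave calls at 500 °Cd in the fit to all groups. N-S- grain was given no N and N-S+ grain a little, so this comparison changes N as well as S. The effects of S and of that N cannot be told apart in it at any stage. At 400 °Cd no member was higher, against 0% of all genes, or lower, against 0.05%, and DESeq2 called none. An unadjusted p under 0.05 was found in 9 of the 115 tested members, against 204 of all 4001 genes. At 500 °Cd none was higher, against 0.425%, and 3 were lower, against 2.15%, with lanes that differ between the groups, so S and lane cannot be told apart. The mean of the stages gave none higher, against 0.15%, and none lower, against 0.425%, with none called by DESeq2. In that mean 11 members had an unadjusted p under 0.05, against 489 of all 4001 genes. At 500 °Cd 85 of the 115 tested members had a negative fold change and 30 a positive one, while 41.4% of all genes were positive. The median log2 fold change of the 115 was -0.28, against -0.08 over all genes. The N-S- libraries of 500 °Cd, which stood apart, enter this comparison. Fitted on the compared groups alone, no member was called at 500 °Cd and 1 was called higher at 400 °Cd, so the 3 calls at 500 °Cd did not hold in that fit. Over all genes the calls at 500 °Cd fell from 103 to 2 in that fit, so the loss was not particular to the members.

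The 3 members lower in N-S- grain at 500 °Cd were TmLoc001204, TmLoc005886 and TmLoc000263, the last named for this comparison after its values were seen. TmLoc001204, of 1218 bases, had no count, 2.08 and 3.34 CPM in N-S- grain and 72.6, 26.1 and 12.9 CPM in N-S+ grain, a ratio of 18.9 with a 95% counting interval of 6.23 to 93.9 (adjusted p = 0.0128). TmLoc005886, of 1416 bases, had no count, 2.08 and 1.67 CPM in N-S- grain and 38.6, 10.8 and 14.3 CPM in N-S+ grain, a ratio of 16.3 with a 95% counting interval of 4.25 to 139 (adjusted p = 0.0353). In neither did the groups overlap. TmLoc000263 had 1586, 2034 and 812 CPM in N-S- grain and 4736, 3029 and 1341 CPM in N-S+ grain, with overlap (log2 fold change -1.03 ± 0.29 SE, adjusted p = 0.0391). No member was called without replicate 1 of N-S+ grain, while 1 was called without replicate 1 of N-S- grain and 8 without replicate 3 of N-S+ grain.

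N supply without S was read from N+S- against N-S- grain, always within 1 lane. At 400 °Cd no member was higher, against 0.125%, and TmLoc006891 alone was lower, against 0.2% of all genes (log2 fold change -1.58 ± 0.31 SE, adjusted p = 0.00164), a call lost without replicate 3 of N+S- grain (adjusted p = 0.0738). At 500 °Cd 6 members were higher, against 2.97%, and none lower, against 1.32%. Over all genes, the calls at 500 °Cd fell from 172 to 6 in the fit on the compared groups alone. In that fit none of the 6 members was called, and the N-S- libraries of 500 °Cd, which stood apart, enter the comparison. Of the 6, 3 were called without replicate 1 of N+S- grain, and without replicate 3 of N+S- grain 2 were higher and 1 lower. With DESeq2 size factors in place of TMM 5 were higher and 2 lower, and DESeq2 itself gave 4 higher and 2 lower. In the mean of the stages 1 was higher, against 1.65%, and 3 lower, against 1.05%, and 2, both lower, were called without replicate 1 of N-S- grain at 400 °Cd or replicate 3 of N+S- grain at 500 °Cd.

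The 6 members higher with N than without it, S being absent, at 500 °Cd were TmLoc001204, TmLoc011667, TmLoc007952, TmLoc004843, TmLoc012286 and TmLoc012588, of which TmLoc007952, TmLoc004843 and TmLoc012588 are named after their values were seen. TmLoc001204 had 118.2, 14.7 and 58.0 CPM in N+S- grain and no count, 2.08 and 3.34 CPM in N-S- grain, a ratio of 34.8 with a 95% counting interval of 11.6 to 171 (adjusted p = 0.000835), and the groups were apart. TmLoc011667, of 1714 bases, had 18.4, 11.0 and 28.1 CPM in N+S- grain and no count, no count and 1.67 CPM in N-S- grain, a ratio of 29.7 with a 95% counting interval of 4.97 to 1207 (adjusted p = 0.0193). The call of TmLoc011667 was lost without replicate 1 or replicate 2 of N-S- grain or replicate 3 of N+S- grain, with adjusted p of 0.0580 to 0.0686. TmLoc012286 had 218805, 119807 and 165797 CPM in N+S- grain and 83404, 92334 and 56275 CPM in N-S- grain, without overlap (log2 fold change 1.08 ± 0.29 SE, adjusted p = 0.0193).

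In the mean of the stages TmLoc010566 was higher in N+S- grain, against N-S- grain (log2 difference 1.50 ± 0.43 SE, adjusted p = 0.0408), a call lost without any 1 of 8 of the 12 libraries with adjusted p of 0.0540 to 0.151, and with the compared groups alone (adjusted p = 0.120). TmLoc006891 (-1.16 ± 0.21 SE, adjusted p = 0.000185), TmLoc011776 (-0.66 ± 0.14 SE, adjusted p = 0.00294) and TmLoc011777 (-0.63 ± 0.18 SE, adjusted p = 0.0426) were lower on the log2 scale. TmLoc011776 had 1697, 1319 and 1623 CPM in N+S- grain and 2215, 2497 and 3057 CPM in N-S- grain at 400 °Cd, and 5337, 3926 and 5375 CPM in N+S- grain and 6704, 7891 and 6889 CPM in N-S- grain at 500 °Cd. The groups did not overlap at either stage. TmLoc006891, TmLoc011776 and TmLoc011777 were thus lower in N+S- grain against both N-S- and N+S+ grain, comparisons that share the N+S- libraries.

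N supply with S, read from N+S+ against N-S+ grain within 1 lane, gave no call among the members at 400 °Cd, at 500 °Cd or in their mean, against 0% of all genes in each direction. At an unadjusted p under 0.05 there were 15, 8 and 27 of the 115 tested members in that order. Over all 4001 genes there were 292, 361 and 410. DESeq2 called none, none and 3 members, against 0, 26 and 25 over all genes, and the 3 were lower in N+S+ grain. The median log2 fold change of the members was -0.18 at 400 and -0.29 at 500 °Cd, against 0 over all genes at both. At 500 °Cd 84 of the 115 were negative and 31 positive, while 50.1% of all genes were positive.

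The step from 400 to 500 °Cd itself was compared between N levels, as the direct test of a shift in timing. No member differed between N+S- and N-S- grain, against 0.125% of all genes with a larger and 0.025% with a smaller step, or between N+S+ and N-S+ grain, against 0% in each direction. At an unadjusted p under 0.05 there were 15 and 3 of the 115 tested members, against 449 and 249 of all 4001 genes. DESeq2 called no member in either. The median difference of the members was 0.15 without S and -0.12 with S on the log2 scale, against 0.09 and 0.01 over all genes. The standard error of a member's difference had a median of 0.77 without S and 0.78 with S, so a shift of 2-fold in most single members was not detectable at this depth. The same test of S supply was not made, since S supply at 500 °Cd coincided with the lane.

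The N effect itself was also compared between S levels, a test added after values were seen. Low-N grain had no N where S was absent and a little N where it was supplied, so the N doses compared are unequal. A difference by S cannot be told apart from that difference in dose. At 400 °Cd no member was called with a more positive log2 N effect without S than with S, against 0.025% of all genes. Called with a more negative one was 1, TmLoc006891, against 0.175%. Its ratio of mean CPM, N supplied over N low or absent, was 0.332 without S and 1.44 with S. That call was lost without replicate 3 of N+S- grain (adjusted p = 0.0693) or replicate 2 of N-S- grain (adjusted p = 0.0644). At 500 °Cd no member was called in either direction, against 0.125% and 0.075%, with 14 at an unadjusted p under 0.05 and none called by DESeq2. The genes at an unadjusted p under 0.05 were not counted over all genes here, so the 14 have no background.

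As a description, the share of the rise reached at 400 °Cd was larger without S in 78 of the 120 members at high N and in 74 at low N, with median differences of 0.07 and 0.03. At 500 °Cd the corresponding numbers were 68 and 38 members, with median differences of 0.02 and -0.06. Grain with and without S was on different lanes at 500 °Cd, so S and lane cannot be told apart there. N supply went with a larger share in 46 members at 400 °Cd and 69 at 500 °Cd without S, and in 52 and 48 with S. These shares use the 300 and 600 °Cd libraries and carry no test. At low N, grain without S also lacked the little N given with S.

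The level reached at 600 °Cd was highest in N-S+ grain in 58 members, in N+S- in 29, in N-S- in 22 and in N+S+ in 11, and lowest in N+S+ grain in 51. In 93 members the highest treatment mean was under 2-fold the lowest, and in 27 it was more. TmLoc011130, with the largest ratio of 6.42, averaged 74.0 CPM in N+S-, 27.2 CPM in N-S-, 51.0 CPM in N+S+ and 11.5 CPM in N-S+ grain. Among members at 10 CPM or more the share with a ratio of 2 or more, after adding 1 CPM, was 21.2%, against 13.0% of tested genes at that level. Which treatment was highest or lowest was not counted over all genes. The rule used the values of 600 °Cd, so these numbers carry no test.

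Single libraries moved many members together. In N+S- grain at 600 °Cd replicate 2 was the lowest of the 3 in 73.0% of the 111 members with a group mean of 10 CPM or more, against 42.0% of tested genes, and in N-S- grain it was the lowest in 70.7% of 116 members, against 36.8%. In N+S- grain at 500 °Cd replicate 2 was again the lowest in 71.2% of 104 members, against 38.3%. There it was also the lowest at 300 °Cd in 63.8% of 47 members, against 31.8%, and at 400 °Cd in 52.6% of 76, against 31.7%. In N-S+ grain at 600 °Cd, by contrast, it was the lowest in 14.9% of 114 members, against 35.5%. Members called are thus not independent of each other. The median length of the members was 1103 bases, shorter than the 1583 of the tested genes and longer than the 741 of all shared genes.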

How the data were processed

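Strand-specific polyA paired-end RNA-seq of einkorn whole grain gave 54 libraries in 18 groups of 3. The authors deposited raw read counts per gene in 1 table per treatment, beside 54 normalized columns that were not used here. Per the submitters' processing notes the tools were CASAVA 1.8.4, BWA 0.7.12-r1039 and edgeR. Neither the reference nor the counting program is named there. The genes with complete rows in all 4 tables were kept, so CPM refer to these genes and not to the whole library. In shares of raw counts an abundant gene lowers the share of the others. TMM factors ran from 0.688 (N-S+ grain at 600 °Cd, replicate 2) to 2.20 (N-S- grain at 100 °Cd, replicate 2). Levels in CPM at early and late stages therefore depend on these factors. Over these genes a library held 370241 to 1736179 counts. Intervals and floors cover counting error only.

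From the counts, edgeR 4.0.16 (R 4.3.3) fitted 1 quasi-likelihood model to all 54 libraries, each group having its own mean, after its filter on low counts, which left 4001 genes, with TMM factors and Benjamini-Hochberg adjustment over those genes at 0.05. Levels and rises used a pseudocount of 1 CPM where stated. A group without counts was set to a floor of 3 counts over the group. Named genes were those with the highest minimum rise, level at 600, 100 or 200 °Cd or extreme share at 500 °Cd, those at the limit of the rule, and the largest called changes of each contrast, with others marked in the text. The members and lists were chosen with earlier results of these data known. Alternatives were DESeq2 1.42.0, its size factors, library totals, no filter, the compared groups alone, a replicate block, other pseudocounts and single libraries left out. Replicates are separate biological samples per the labels.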

Additional observations from a re-analysis of the deposited data

Results flagged for a closer look

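Of 560 pairs of effects compared, 2 members at 400 °Cd had all 3 N-supplied libraries above all 3 others with S, and below them without S. The N effects of TmLoc000263 did not pass the test at either S level, and that of TmLoc006891 passed without S and not with S (adjusted p = 0.703). The ratio of mean CPM with 1 CPM added, N supplied over N low or absent, was 1.83 with S and 0.65 without S for TmLoc000263. The test of the difference, added after the values were seen, gave -1.49 ± 0.43 on the log2 scale (SE, edgeR adjusted p = 0.195), which did not pass. For TmLoc006891 the ratios were 1.44 with S and 0.332 without S, and the difference was -2.12 ± 0.42 on the log2 scale (SE, edgeR adjusted p = 0.00498). It was the only member called at 400 °Cd, against 0.175% of all genes called lower and 0.025% higher, and the call was lost without replicate 3 of N+S- grain (adjusted p = 0.0693) or replicate 2 of N-S- grain (adjusted p = 0.0644). At 500 °Cd its difference was -1.13 (adjusted p = 0.212), and edgeR and DESeq2 called no member. At an unadjusted p under 0.05 there were 14 members, a number not counted over all genes. The N effects compared span unequal doses, since low-N grain had no N without S and a little with S. Dose and S cannot be told apart in these differences.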

How the results depend on the processing

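No named call changed sign under the alternatives run. Leaving out 1 library, or all libraries of 1 replicate number, at a time, the members called numbered 17 to 26 for 200 against 100 °Cd, and for 500 against 400 °Cd 20 to 43 (N+S-), 16 to 30 (N-S-), 28 to 47 (N+S+) and 24 to 51 (N-S+). For lack of S at high N they numbered 1 to 3 at 400 °Cd, 2 to 3 at 500 °Cd and 3 to 7 in the mean, and at low N 0, 0 to 8 and 0. For N without S they numbered 0 to 1, 2 to 6 and 2 to 6, and with S 0 to 1, 0 and 0 to 1. The steps differed by N in 0 to 1 without S and 0 with S, and the N effects by S in 0 to 1 at 400 and 0 to 1 at 500 °Cd. Leaving out only whole replicate numbers, members halfway by 400 °Cd numbered 47 to 54 (N+S-), 53 to 57 (N-S-), 40 to 47 (N+S+) and 41 to 53 (N-S+), and by 500 °Cd 110 to 115, 92 to 101, 98 to 112 and 102 to 111. Of the 120 members, 102 to 108 were chosen again.

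With the compared groups alone, the calls numbered 15 for 200 against 100 °Cd, 19 for the step in N-S-, 6, 6 and 11 for lack of S at high N (400, 500, mean), 1 and 0 at low N (400, 500), 2 and 0 for N without S (400, 500), and 2 for the N effects by S at 400 °Cd. With no filter they numbered 10, 5 and 11 for lack of S at high N (400, 500, mean), 2, 11 and 6 at low N, 5, 16 and 11 for N without S, 6, 2 and 11 for N with S, 2 and 1 for the steps by N without and with S, and 2 and 4 for the N effects by S (400, 500). DESeq2 called 4 for lack of S at high N at 400 °Cd and 3 for N with S in the mean. Calls over all genes changed too. With no filter they went from 0 to 10, 14 and 42 for N with S (400, 500, mean). With the compared groups alone they fell from 103 to 2 for lack of S at low N at 500 °Cd. They rose from 31 to 47 for lack of S at high N at 400 °Cd, and from 827 to 1153 for 200 against 100 °Cd. The cause was not tested. On the linear scale the members halfway by 400 °Cd numbered 13 in N+S-, 18 in N-S-, 8 in N+S+ and 14 in N-S+, and by 500 °Cd 70 in N+S-, 58 in N-S-, 66 in N+S+ and 75 in N-S+, since that scale weighs late steps more. Same-numbered replicates correlated at -0.109 to 0.0894 in 459 pairs over all tested genes, so no pairing by number was seen across these genes. A pairing that acts on the members alone or within 1 treatment was not tested. The replicate block moved lack of S at low N at 500 °Cd to 5 calls and gave 48, 35, 51 and 54 for the step in N+S-, N-S-, N+S+ and N-S+ grain. Scaling on larger gene sets was not run. Depth limits members with few counts at 300 and 400 °Cd.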
